A study of Homo sapiens with 6 samples.

Results

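The genes described here encode plasma membrane and organelle carriers of amino acids, glucose and related sugars, and monocarboxylates such as lactate. They were taken by symbol alone, as every probe set with a single annotated gene symbol in the families SLC1A, SLC2A, SLC3A, SLC6A, SLC7A, SLC16A, SLC36A, SLC38A and SLC43A. This gave 229 of the 49395 probe sets on the array and 81 of the 18132 genes with a probe set of 1 symbol. The cells were HMEC-1, an immortalised line of human microvascular endothelial cells, kept in serum-free MCDB131 medium. In 3 samples they received 1e+11 particles per mL of EPC-Exos for 24 hours, and in 3 samples an equal volume of PBS for the same time. EPC-Exos is not spelled out in the labels; exosomes from endothelial progenitor cells are what the study is known for. Total RNA was hybridised to Affymetrix 3' arrays, which report 1 signal per probe set, deposited on a log2 scale. The labels do not say whether the arrays of a group came from separate cultures, so p-values here reflect the spread among the 6 arrays, which may be technical.

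These carriers decide what a cell can take from its medium. The SLC1A, SLC38A and SLC6A families use the sodium gradient to load amino acids, many SLC7A proteins exchange one amino acid for another and need a heavy chain of the SLC3A family to reach the membrane, and SLC36A and SLC43A carriers move amino acids by proton coupling or facilitated diffusion. SLC2A proteins are the facilitative GLUT sugar transporters, and the SLC16A family holds the proton-linked lactate carriers as well as transporters of thyroid hormone, aromatic amino acids and creatine. Endothelial cells are known for a high glycolytic flux and for glutamine and arginine use, and genes of amino acid uptake are classical targets of the starvation factor ATF4, which binds an amino acid response element in their promoters.

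A few facts of the arrays bear on every value below. Array medians lay between 6.25 and 6.34 log2 units, and the 17 probe sets for Tag controls, designed against no human RNA, had mean log2 signals of at most 4.97, used here as a guide to background. Of 15 endothelial markers, 12 lay above that level in both groups, while CDH5, TEK and CLDN5 lay at or below it. Of all tested genes, 21.7% were called higher and 27.3% lower, and the marker counts here stand against these shares. The marker totals, however, include markers of low signal that were left out of that test. In the fit without a signal filter, 32.3% of genes were called in either direction. Endothelial markers had a summed linear signal of 3552 to 3584 with EPC-Exos and 2610 to 2961 with PBS, with 4 of 15 called higher (TIE1, ENG, FLI1 and ESAM). ENG, the brightest of these 4, averaged 9.96 with EPC-Exos and 9.16 with PBS. Of 6 fibroblast markers, 4 (COL1A1, COL3A1, DCN and LUM, the last from the fit without a signal filter) were lower with EPC-Exos, COL1A2 and PDGFRA lay at the background guide in both groups, and the summed linear signal was 1482 to 1649 with EPC-Exos and 3489 to 3809 with PBS. Epithelial markers, 2 of 5 lower (KRT8 and KRT18) and 2 at the background guide (CDH1 and KRT19), summed to 4572 to 4737 with EPC-Exos and 6721 to 7409 with PBS, and smooth muscle markers, 1 of 4 lower (ACTA2), to 237 to 284 with EPC-Exos and 413 to 444 with PBS. Of 5 leukocyte markers, 4 (PTPRC, CD14, ITGAM and LYZ) lay at or below the background guide in both groups, and the 5 summed to 99 to 115 with EPC-Exos and 97 to 106 with PBS. The part of these marker shifts in the transporter values was not tested, and in RNA of whole cultures a change in RNA per cell and a change in the share of cells that express a gene cannot be told apart.

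Outside the SLC2A and SLC16A families, 11 of 35 tested carrier genes, all of amino acid carrier families, were higher with EPC-Exos and 5 were lower (49.1% of all tested genes were called, 21.7% higher and 27.3% lower), and of 10 tested genes of the SLC2A (GLUT) family 3 were lower (30.0%, near the share lower among all genes). The cationic amino acid transporter gene SLC7A2 showed the largest rise (2.18-fold) and the sugar transporter gene SLC2A10 the largest fall (2.5-fold) among the transporter genes as tested, with 1 probe set per gene. A second SLC2A10 probe set gave a log2 change of -0.22 and was not called. Of the 81 genes, 50 had a mean log2 signal at or above the filter of 5.45 and were tested, and 31 lay below it. With limma and Benjamini-Hochberg adjustment over all 11715 genes tested, 13 of the 50 rose (26.0%, against 21.7% of all tested genes), 8 fell (16.0%, against 27.3%) and 29 did not pass. In all 42.0% of the tested transporter genes passed, against 49.1% of all tested genes, and this difference was not tested. Mean log2 signals lay under 7 in 26 of the 50, and of all tested genes under 7, 30.3% passed. The median log2 change was 0.05 over the tested transporter genes and -0.01 over all tested genes. The series itself set its threshold at 1.5-fold or more and an unadjusted p below 0.05, and there 1 transporter gene was higher and 3 were lower, while 3.94% and 5.96% of all tested genes passed in these directions. The values of the 3 arrays of each group did not overlap in 30 of the 50 genes, against 55.7% of all tested genes.

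**Figure D1:**
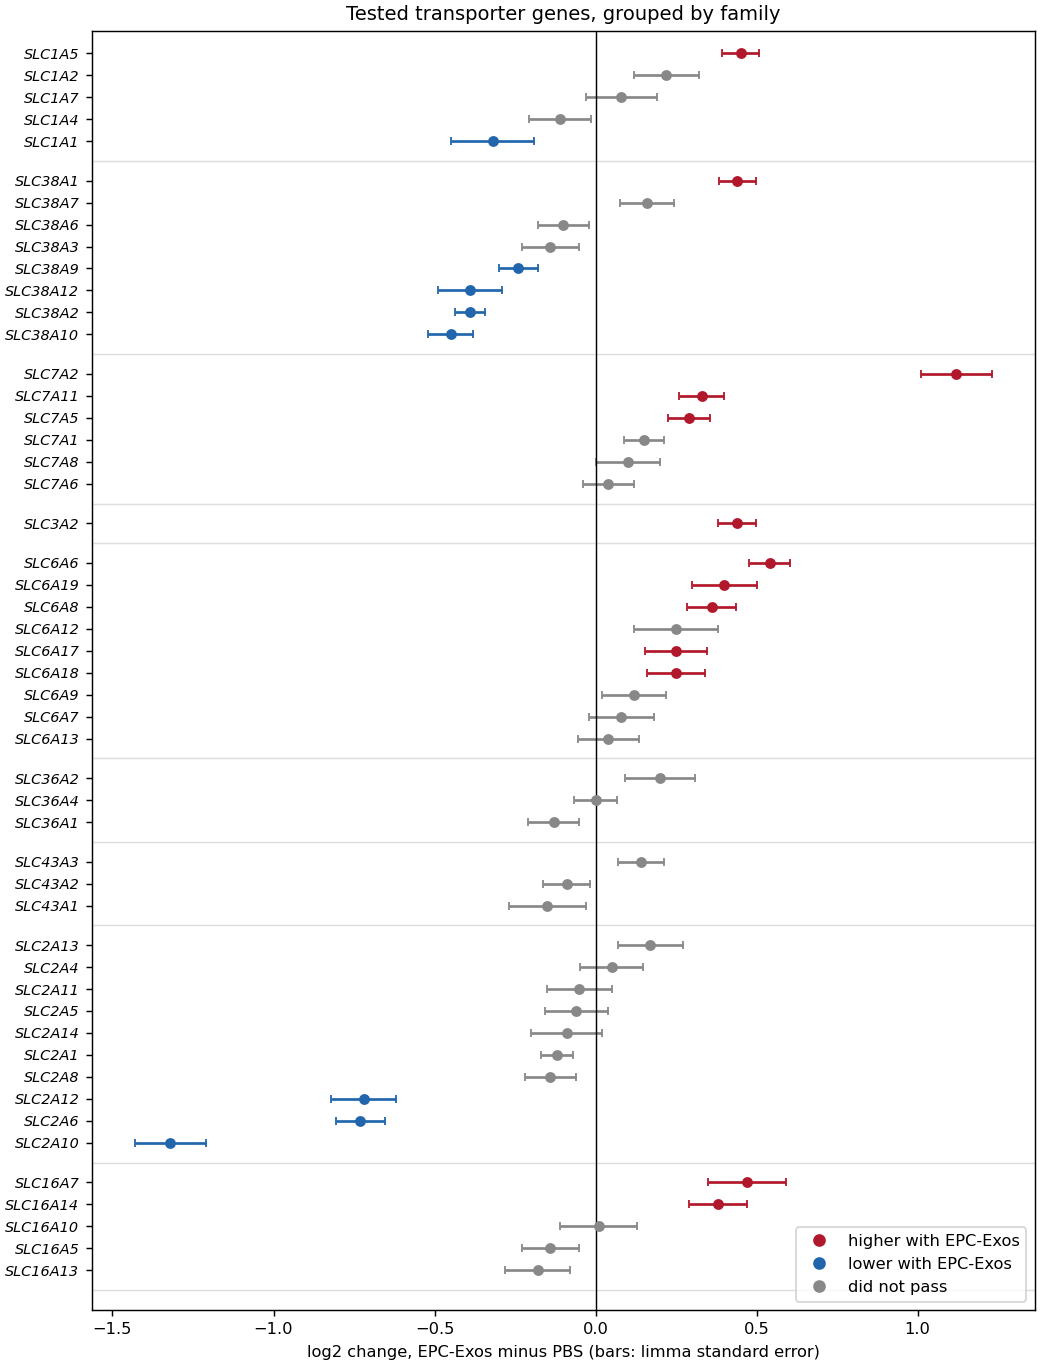
Log2 change (EPC-Exos minus PBS) of the 50 tested transporter genes on the horizontal axis, with bars for limma's standard error, grouped by gene family. Red points (13 genes) are higher and blue points (8 genes) lower at an adjusted p under 0.05, and grey points (29 genes) did not pass. SLC7A2 at 1.12 and SLC2A10 at -1.32 are the ends of the range.

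By family, the called genes of SLC6A (5 of 9 tested), SLC7A (3 of 6), SLC3A (1 of 1) and SLC16A (2 of 5) were all higher, and those of SLC2A (3 of 10) were all lower. SLC38A held both, with 1 higher and 4 lower of 8 tested, as did SLC1A, with 1 higher and 1 lower of 5 tested. Of all tested genes, 21.7% were called higher and 27.3% lower. The families are small, and their directions were not tested. Among the SLC6A genes, SLC6A17 lost its call in 7 alternative settings and SLC6A18 in 4. In SLC36A and SLC43A, 0 of 3 genes each passed in limma, and none of these 6 genes had an unadjusted p under 0.05.

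Promoters are shown for 5 tested amino acid carrier genes that hold the letters of the amino acid response element, and for SLC2A10. Of the 5, SLC1A5, SLC3A2 and SLC38A1 rose and SLC7A1 and SLC1A4 did not pass. SLC2A10 had the largest fall in the probe set tested. These genes were picked for display, so they do not compare genes with and without the letters. The letters also occur in windows of SLC1A3, a glutamate carrier gene below the signal filter, and of the fructose carrier gene SLC2A5, which did not pass. The windows run from 250 bases before to 50 bases after a transcription start (RefSeq, GRCh38.p14), 5′ to 3′ on the gene's strand, and capitals mark each match to TGATGNAA on either strand.
SLC1A5 (chr19:46784765-46785064, minus strand): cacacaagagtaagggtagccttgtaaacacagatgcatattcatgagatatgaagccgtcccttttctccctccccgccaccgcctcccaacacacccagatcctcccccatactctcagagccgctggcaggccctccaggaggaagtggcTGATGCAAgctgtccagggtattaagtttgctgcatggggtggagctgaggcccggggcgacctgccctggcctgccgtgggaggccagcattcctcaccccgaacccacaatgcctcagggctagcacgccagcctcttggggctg
SLC3A2 (chr11:62881449-62881748, plus strand): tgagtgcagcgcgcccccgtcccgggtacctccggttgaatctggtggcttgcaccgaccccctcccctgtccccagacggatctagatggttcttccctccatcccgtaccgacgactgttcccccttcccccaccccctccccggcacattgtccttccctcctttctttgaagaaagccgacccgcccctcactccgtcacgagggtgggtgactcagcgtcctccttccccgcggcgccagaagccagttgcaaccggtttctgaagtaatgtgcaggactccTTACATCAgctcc
SLC38A1 (chr12:46266467-46266766, minus strand): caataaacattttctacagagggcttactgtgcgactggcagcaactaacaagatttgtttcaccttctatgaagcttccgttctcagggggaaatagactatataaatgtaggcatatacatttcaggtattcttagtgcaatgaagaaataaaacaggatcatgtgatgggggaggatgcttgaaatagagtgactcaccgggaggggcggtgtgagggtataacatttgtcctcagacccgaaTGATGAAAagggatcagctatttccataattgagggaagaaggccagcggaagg
SLC7A1 (chr13:29595639-29595938, minus strand): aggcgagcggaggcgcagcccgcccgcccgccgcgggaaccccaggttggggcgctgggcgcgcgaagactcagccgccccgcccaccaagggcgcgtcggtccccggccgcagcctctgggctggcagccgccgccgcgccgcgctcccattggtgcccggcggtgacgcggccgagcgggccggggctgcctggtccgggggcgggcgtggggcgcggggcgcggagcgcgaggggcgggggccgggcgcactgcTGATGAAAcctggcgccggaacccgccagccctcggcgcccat
SLC1A4 (chr2:64989149-64989448, plus strand): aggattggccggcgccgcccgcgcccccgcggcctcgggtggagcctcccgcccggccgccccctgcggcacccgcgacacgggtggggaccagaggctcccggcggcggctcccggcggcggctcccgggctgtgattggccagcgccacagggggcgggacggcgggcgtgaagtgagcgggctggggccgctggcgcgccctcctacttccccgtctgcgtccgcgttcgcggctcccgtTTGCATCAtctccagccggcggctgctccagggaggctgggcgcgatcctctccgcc
SLC2A10 (chr20:46709399-46709698, plus strand): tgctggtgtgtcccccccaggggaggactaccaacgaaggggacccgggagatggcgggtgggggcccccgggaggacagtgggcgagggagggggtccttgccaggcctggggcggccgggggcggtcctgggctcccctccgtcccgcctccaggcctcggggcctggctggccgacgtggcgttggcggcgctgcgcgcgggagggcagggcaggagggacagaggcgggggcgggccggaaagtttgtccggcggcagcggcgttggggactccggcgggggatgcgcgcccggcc

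The match lay 97 bases before the start in SLC1A5, 4 bases before it in SLC38A1 and 7 bases before it in SLC1A4. It began at base 38 after the start in SLC3A2 and at base 8 in SLC7A1. SLC1A5 and SLC3A2 have 3 annotated windows each and SLC38A1 and SLC1A4 have 2 each, and in each of these genes the motif stood in 1 window, the one printed. Over all transporter genes, 7 of 90 windows held it (7.78%, from 7 of the 63 genes with a window), against 3.62% of all 35116 promoter windows. The E-box CACGTG, the site read by MYC and related factors, occurred in 12 of the 90 windows (13.3%), against 7.26% of all windows. Of the 8 tested genes with an E-box, SLC1A5 and SLC7A5 rose, and SLC1A7, SLC36A1, SLC43A1, SLC2A13, SLC7A8 and SLC38A7 did not pass. The other genes with an E-box, SLC16A9, SLC7A7, SLC6A16 and SLC38A5, lay below the signal filter. The letters TGATGNAA do not occur in the SLC2A10 window. Of the 40 tested transporter genes with a window, 6 held these letters. No match was found for the other genes that rose, such as SLC7A2 and SLC6A6, nor for any gene that fell. Not every gene has a window, and a link between the letters and the direction of change was not tested. A match is a string of letters, and occupancy was not measured.

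The sodium-dependent exchanger gene SLC1A5, the main glutamine entry route of many cell lines, had log2 signals of 10.12, 10.24 and 10.22 with EPC-Exos, against 9.70, 9.79 and 9.74 with PBS. All 3 EPC-Exos arrays lay above all 3 PBS arrays, a log2 change of 0.45 ± 0.056 (SE, n = 3 each, limma adjusted p = 4.99e-06). SLC38A1, a system A carrier that loads glutamine and alanine, had 10.71, 10.74 and 10.74 with EPC-Exos, against 10.41, 10.17 and 10.29 with PBS. Again the groups were apart, by 0.44 ± 0.058 (limma adjusted p = 8.76e-06), and the other 3 probe sets of SLC38A1 above the filter gave 0.44 to 0.66, while those of SLC1A5 gave 0.46 and 0.47. SLC38A2 encodes the related system A carrier that cells raise under amino acid shortage, and its log2 signals, the highest of any transporter gene tested, were 11.85, 11.85 and 11.79 with EPC-Exos, against 12.27, 12.10 and 12.30 with PBS. It thus moved opposite to SLC38A1, by -0.39 ± 0.048 (limma adjusted p = 4.12e-06), with the EPC-Exos arrays all below the PBS arrays. Its other 2 probe sets changed by -0.29 and -0.25, both called over all probe sets.

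A further 3 genes of the SLC38A family, SLC38A9, SLC38A10 and SLC38A12, fell in the probe set tested. SLC38A9, the lysosomal arginine sensor that signals to the growth kinase complex mTORC1, had 9.01, 9.02 and 9.02 with EPC-Exos, against 9.22, 9.32 and 9.24 with PBS, a change of -0.24 ± 0.061 (limma adjusted p = 0.00334). The fall was 1.18-fold, the smallest among called genes, but the groups did not overlap and the other 2 probe sets gave -0.31 and -0.28. SLC38A10 fell by 0.45 on the log2 scale, with means of 8.62 ± 0.037 with EPC-Exos and 9.06 ± 0.10 with PBS (SD, n = 3 each), and its second probe set gave -0.08 and was not called. SLC38A12 averaged 7.63 ± 0.094 with EPC-Exos and 8.03 ± 0.22 with PBS, and its other probe sets gave -0.04 and 0.08, so this call rests on 1 probe set. SLC38A7, the lysosomal glutamine exporter, had a change of 0.16 ± 0.083 and did not pass (limma adjusted p = 0.137), nor did SLC38A3 and SLC38A6, at -0.14 and -0.10.

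SLC1A4, the exchanger of alanine, serine, cysteine and threonine, gave different answers by probe set. Its brightest probe set, which stood for the gene in the test, had 6.48, 6.40 and 6.58 with EPC-Exos, against 6.70, 6.61 and 6.47 with PBS, with overlapping groups and no call (limma adjusted p = 0.383). Another had 5.34, 5.47 and 5.50 with EPC-Exos, against 6.68, 6.72 and 6.87 with PBS. The next had 4.89, 5.39 and 5.15 with EPC-Exos, against 6.60, 6.34 and 6.53 with PBS. These 2 probe sets were 2.5-fold and 2.54-fold lower with EPC-Exos, with no overlap of groups and limma adjusted p = 2.42e-08 and 2.58e-07 over the 27244 probe sets above the filter. Their EPC-Exos means, 5.44 and 5.14, lay under the filter of 5.45, which they passed through PBS means of 6.76 and 6.49. Probe sets of SLC1A4 below the filter gave -0.11 and -0.32. Among those above it, a further one fell by 0.47 (limma adjusted p = 0.00099 over the same 27244 probe sets). The files do not say which transcripts each probe set detects, and these probe sets were singled out after their values were seen. The glutamate and cysteine carrier gene SLC1A1 averaged 5.77 ± 0.15 with EPC-Exos and 6.10 ± 0.27 with PBS, and passed at the edge of the threshold (limma adjusted p = 0.0499) with overlapping groups. Its call was lost in 7 alternative settings and kept in 6, with limma adjusted p between 0.00585 and 0.249. Among the 7 were the fits without EPC-Exos replicate 1 (adjusted p = 0.195), EPC-Exos replicate 3 (0.082), PBS replicate 2 (0.0974) and PBS replicate 3 (0.249). The glial glutamate carrier gene SLC1A2, at 0.22, and the retinal SLC1A7, at 0.08, did not pass.

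**Figure D2:**
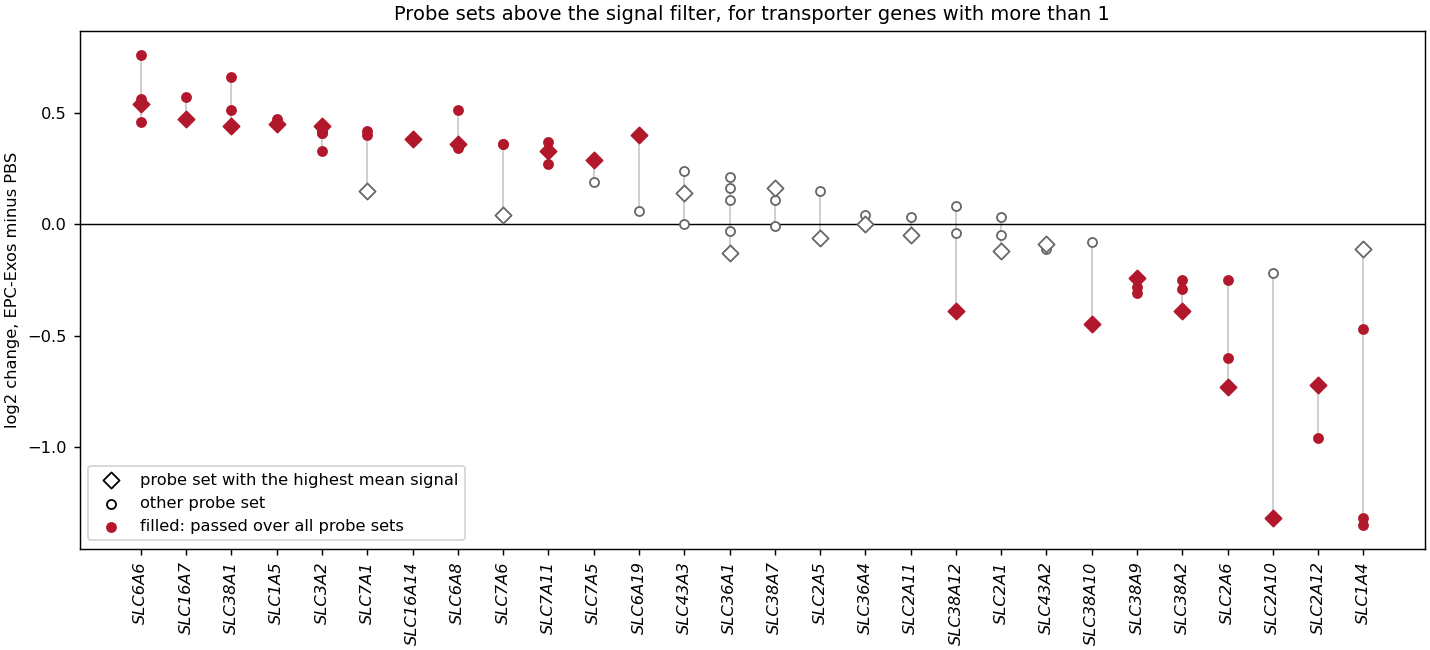
Log2 change (EPC-Exos minus PBS, vertical axis) of each of the 82 probe sets above the signal filter that belong to the 28 transporter genes with more than 1. Diamonds are the probe set with the highest mean signal, circles the others, and filled symbols passed at an adjusted p under 0.05 over all probe sets above the filter. In SLC1A4, at the right, the diamond is open at -0.11 while 3 circles are filled between -1.35 and -0.47.

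In the CD98 exchanger system, the heavy chain gene SLC3A2 and 2 of 4 tested SLC7A genes described with it, SLC7A11 and SLC7A5, rose. SLC3A2, the heavy chain that brings several SLC7A light chains to the surface, had 10.57, 10.45 and 10.60 with EPC-Exos, against 10.05, 10.05 and 10.21 with PBS, a change of 0.44 ± 0.059 (SE, limma adjusted p = 1.19e-05). Of its 7 probe sets, the other 6 gave changes of 0.33 to 0.44, all called over all probe sets. Among its light chains, SLC7A11, which imports cystine in exchange for glutamate, had 9.92, 9.85 and 9.89 with EPC-Exos, against 9.70, 9.39 and 9.59 with PBS. The groups were apart by 0.33 ± 0.070 (limma adjusted p = 0.000976), and the other 2 probe sets gave 0.27 and 0.37. SLC7A5, the exchanger of leucine and other large neutral amino acids, had 8.87, 9.02 and 8.94 with EPC-Exos, against 8.62, 8.68 and 8.68 with PBS, a change of 0.29 ± 0.066 (limma adjusted p = 0.00164). Its second probe set, at 0.19, was not called. SLC7A6, which exchanges cationic for neutral amino acids, changed by 0.04 in the probe set used for the test and was not called (limma adjusted p = 0.682), while its other 2 probe sets each gave 0.36 and were called over all probe sets. SLC7A8, a further neutral exchanger, averaged 6.18 ± 0.036 with EPC-Exos and 6.08 ± 0.13 with PBS and did not pass.

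The cationic transporter genes carry arginine, lysine and ornithine. SLC7A2, known as a carrier induced by inflammatory signals in several cell types, had 7.25, 7.17 and 7.17 with EPC-Exos, against 5.87, 6.02 and 6.32 with PBS. The EPC-Exos arrays lay within 0.1 of each other and well above every PBS array, a log2 change of 1.12 ± 0.11 (SE, n = 3 each, limma adjusted p = 2.56e-07). Of its other 3 probe sets, all below the filter, those with means of 5.65 and 5.83 with EPC-Exos had 4.72 and 4.83 with PBS, differences of 0.93 and 1.00, and the last differed by 0.29. SLC7A1, the constitutive arginine carrier, had 9.36, 9.47 and 9.46 with EPC-Exos, against 9.21, 9.34 and 9.27 with PBS. These groups did not overlap, yet the change of 0.15 ± 0.062 missed the threshold (limma adjusted p = 0.0515). Dimmer probe sets of SLC7A1 gave 0.42 and 0.40, both called over all probe sets, so the size for this gene depends on the probe set.

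**Figure D3:**
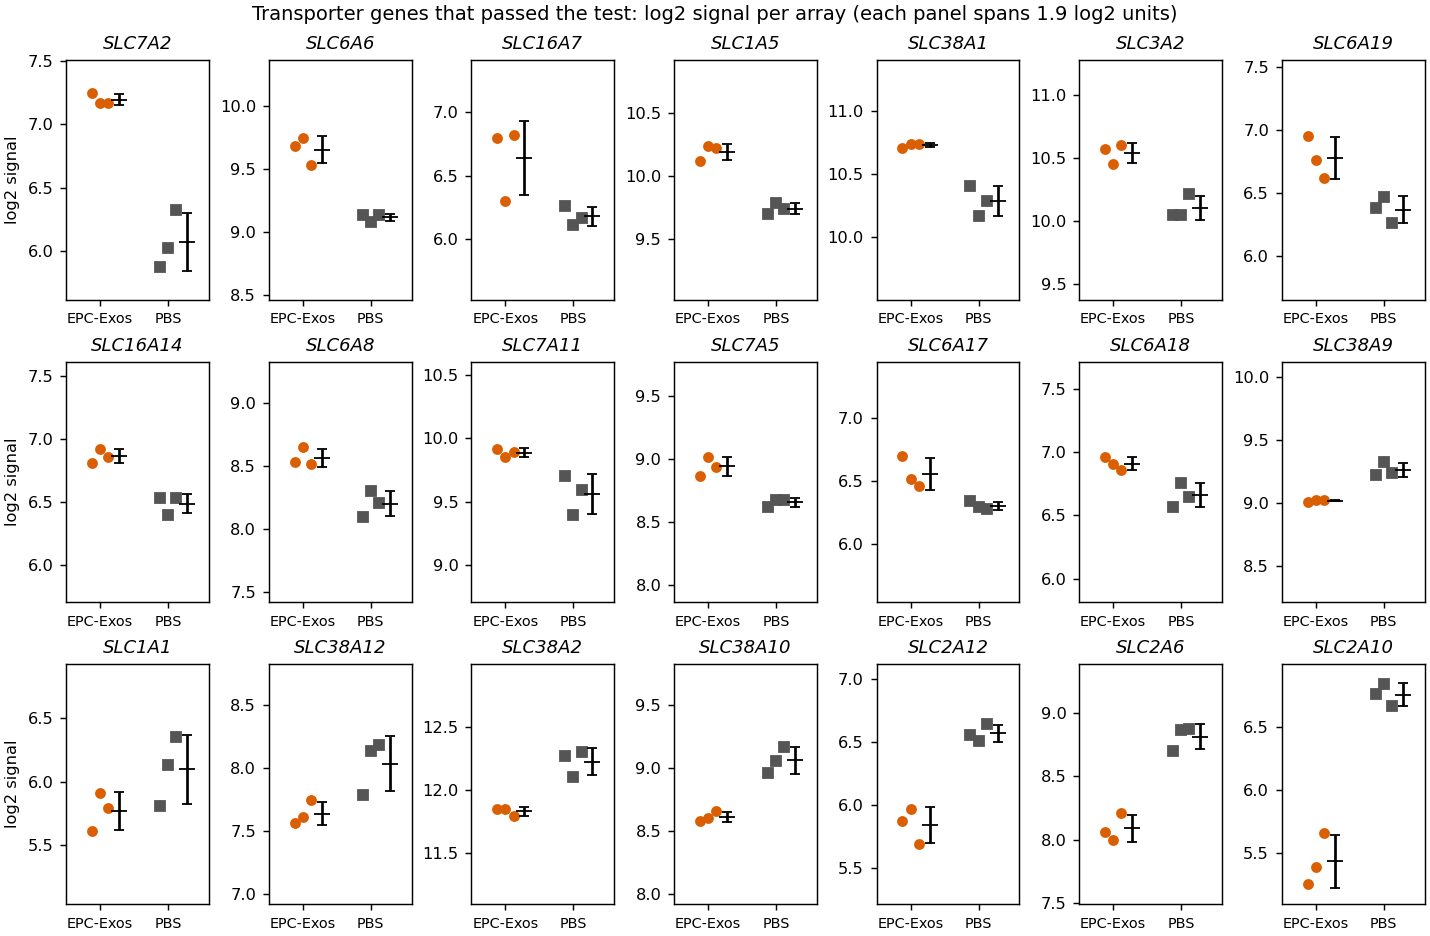
Log2 signal (vertical axis) of each array for the 21 transporter genes that passed the test, with 3 EPC-Exos arrays (orange circles) left of 3 PBS arrays (grey squares) and bars for mean ± SD; each panel spans 1.9 log2 units. Panels run from the largest rise (SLC7A2) to the largest fall (SLC2A10), and in 20 of the 21 the groups do not overlap, SLC1A1 being the exception.

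The SLC6A family couples transport to sodium and chloride. The taurine transporter gene SLC6A6 had 9.68, 9.74 and 9.53 with EPC-Exos, against 9.13, 9.08 and 9.13 with PBS, a change of 0.54 ± 0.065 (SE, limma adjusted p = 3.81e-06), and its other 3 probe sets above the filter gave 0.46 to 0.76, while 1 below it gave 0.22. SLC6A8, the creatine transporter gene, averaged 8.57 ± 0.072 with EPC-Exos and 8.20 ± 0.10 with PBS (SD, n = 3 each), and all 3 of its probe sets were called, at 0.34 to 0.51. These genes are osmolyte and energy buffer carriers, and both had signals far above the background guide. A further 3 genes passed at lower signal: SLC6A19, the neutral amino acid carrier of gut and kidney epithelium, SLC6A18, a kidney carrier of the same subgroup, and SLC6A17, a carrier of synaptic vesicles. Their changes were 0.40, 0.25 and 0.25, with mean log2 signals of 6.56 to 6.91 with EPC-Exos and 6.30 to 6.66 with PBS, and the second probe set of SLC6A19 above the filter gave 0.06. SLC6A18 lost its call in 4 and SLC6A17 in 7 alternative settings. In SLC6A18 this happened without EPC-Exos replicate 1 or 2 or PBS replicate 1 or 3 (limma adjusted p of 0.0582 to 0.0908), and in SLC6A17 without any single array but EPC-Exos replicate 3 (adjusted p of 0.0508 to 0.183). SLC6A17 also lost its call without the filter (limma adjusted p = 0.0599) and with the mean of its probe sets, at 0.05 (limma adjusted p = 0.631). Its other probe set, below the filter, gave -0.15, so the call of SLC6A17 rests on the probe set tested. The betaine carrier gene SLC6A12 (0.25), the glycine carrier gene SLC6A9 (0.12), the proline carrier gene SLC6A7 (0.08) and SLC6A13 (0.04) did not pass.

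Among the remaining amino acid carriers, SLC36A4, the brightest tested gene of the SLC36A family, had 9.14, 9.12 and 9.06 with EPC-Exos, against 9.15, 8.98 and 9.17 with PBS. These values overlapped, with a change of 0.00 ± 0.067 (limma adjusted p = 0.966). The lysosomal carrier gene SLC36A1 changed by -0.13 and SLC36A2 by 0.20, neither passing. In SLC43A, the facilitative leucine carrier genes SLC43A1 and SLC43A2 changed by -0.15 and -0.09, and SLC43A3, a purine base transporter gene, by 0.14. The brightest of these, SLC43A2, had 8.07, 8.08 and 8.09 with EPC-Exos, against 8.11, 8.27 and 8.14 with PBS, apart by 0.09 on average, which did not pass (limma adjusted p = 0.323).

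Among the GLUT genes, the main endothelial glucose carrier gene SLC2A1 had 10.23, 10.30 and 10.36 with EPC-Exos, against 10.42, 10.43 and 10.41 with PBS. Every EPC-Exos array was lower, but by 0.12 on average, which did not pass (limma adjusted p = 0.0582), and its other 2 probe sets above the filter gave 0.03 and -0.05. SLC2A10, whose loss in humans causes arterial tortuosity syndrome, had 5.25, 5.39 and 5.66 with EPC-Exos, against 6.76, 6.84 and 6.66 with PBS, a change of -1.32 ± 0.11 (SE, limma adjusted p = 6.46e-08). The groups did not overlap. Its mean was 5.43 with EPC-Exos, under the filter of 5.45, and 6.75 with PBS, so it passed the filter through the PBS arrays. A second probe set of SLC2A10 gave -0.22 and was not called (limma adjusted p = 0.148 over the probe sets above the filter). Another, below the filter, gave 0.01, with means of 4.56 with EPC-Exos and 4.55 with PBS. The mean of its probe sets changed by -0.51, and the large fall rests on 1 probe set. SLC2A6, a lysosomal GLUT protein gene, had 8.06, 8.0 and 8.21 with EPC-Exos, against 8.70, 8.87 and 8.88 with PBS, and fell 1.66-fold (limma adjusted p = 8.06e-07). Its other probe sets above the filter gave -0.60 and -0.25, the last being its value without probe sets ending in _x_at or _s_at, and 1 below the filter gave -0.21. SLC2A12, an insulin-responsive GLUT gene of muscle and fat, had 5.87, 5.97 and 5.69 with EPC-Exos, against 6.55, 6.51 and 6.64 with PBS. Its fall of 1.65-fold (limma adjusted p = 1.84e-05) stood beside -0.96 in its second probe set above the filter. That probe set averaged 5.35 with EPC-Exos, itself under the filter of 5.45, and 6.31 with PBS. Another SLC2A12 probe set, with both group means below the background guide, gave 0.06. The intracellular carrier gene SLC2A8, at -0.14, the insulin-regulated SLC2A4, at 0.05, the fructose carrier gene SLC2A5, at -0.06, SLC2A11, at -0.05, the myo-inositol carrier gene SLC2A13, at 0.17, and SLC2A14, at -0.09, did not pass. SLC2A14 is a near copy of SLC2A3, so its value is uncertain.

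In the SLC16A family, SLC16A7, a proton-linked carrier of pyruvate and lactate, had 6.80, 6.30 and 6.82 with EPC-Exos, against 6.26, 6.11 and 6.16 with PBS. EPC-Exos replicate 2 lay close to the PBS arrays, and the change of 0.47 ± 0.12 (SE, limma adjusted p = 0.00505) became 0.63 without it, past the 1.5-fold mark. Its second probe set above the filter gave 0.57. SLC16A14 had 6.81, 6.92 and 6.86 with EPC-Exos, against 6.53, 6.40 and 6.53 with PBS, a change of 0.38 ± 0.089 (limma adjusted p = 0.00198), with 0.38 in its second probe set too. The aromatic amino acid carrier gene SLC16A10, at 0.01, and SLC16A13, at -0.18, did not pass. SLC16A5, the brightest tested gene of the family, had 6.82, 6.74 and 6.60 with EPC-Exos, against 6.82, 6.90 and 6.88 with PBS, nearly touching groups with a change of -0.14 that did not pass (limma adjusted p = 0.21). Genes of these families without a probe set of 1 symbol were not analysed here. SLC16A1 and SLC16A3 were among them, so the SLC16A counts leave out part of the lactate carriers. The 7 probe sets that the annotation assigns to a transporter gene and a second gene were kept out of the counts.

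Of the 31 genes below the filter, 28 had both group means at or below the background guide. In the limma fit without the filter, where 32.3% of 18132 genes were called, 3 of the 31 passed. SLC38A4, a further system A carrier gene known from liver, had 4.33, 4.27 and 4.56 with EPC-Exos, against 5.58, 5.19 and 5.24 with PBS (limma adjusted p = 7.96e-06). The EPC-Exos mean lay below the background guide, so the difference of -0.95 can understate the change in this probe set. Other probe sets of SLC38A4 gave -0.24 and -0.05, with both group means below the guide. Neither was called over all probe sets without the filter (limma adjusted p = 0.15 and 0.808). SLC16A9 averaged 5.59 ± 0.19 with EPC-Exos and 5.00 ± 0.12 with PBS. Another probe set of SLC16A9 gave 0.25, with overlapping groups below the guide (limma adjusted p = 0.196 over all probe sets without the filter). The creatine carrier gene SLC16A12, at 3.20 ± 0.14 with EPC-Exos and 3.81 ± 0.18 with PBS, was below the guide in both groups, so its difference lies within the range of the background guide.

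The share of genes called grew with signal in the whole table, from under 7 log2 units (30.3% of 2841 genes) through 7 to 9 (49.8% of 4340) to 9 and above (60.1% of 4534). Of the 10 tested transporter genes at 9 or above, 5 were higher and 2 lower with EPC-Exos. Of the 14 between 7 and 9, 2 were higher and 3 lower, and of the 26 below 7, 6 were higher and 3 lower. The 167 tested genes of all other SLC families had 36 higher and 49 lower, 50.9% called.

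**Figure D4:**
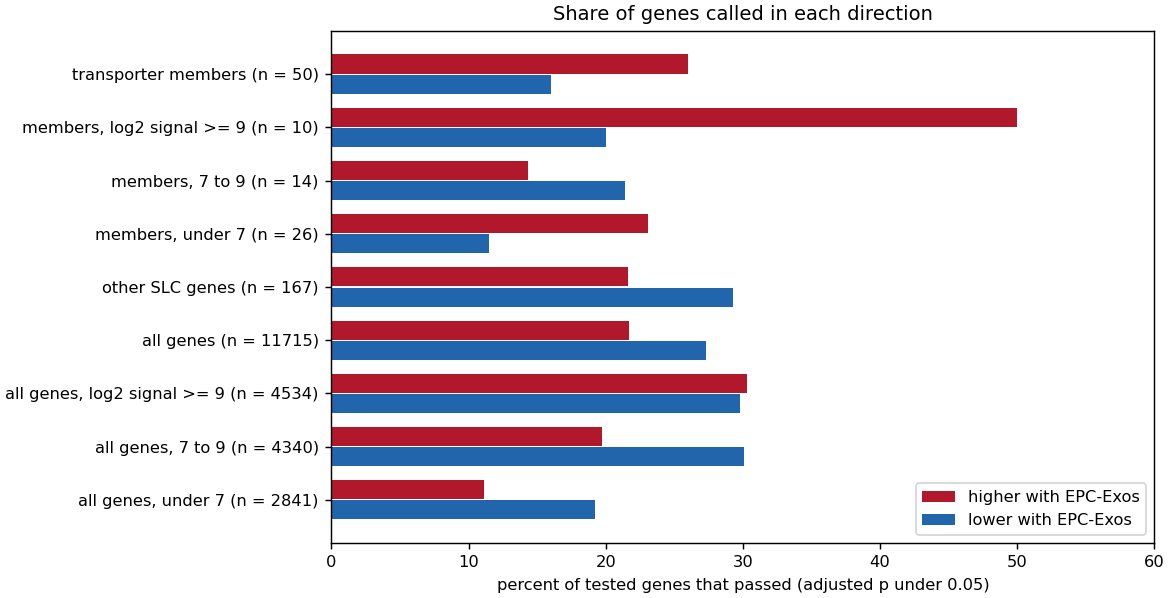
Percent of tested genes called higher (red) or lower (blue) with EPC-Exos at an adjusted p under 0.05 (horizontal axis), for the transporter genes, for the same genes by mean log2 signal, for other SLC genes and for all genes, with the number tested in each label. The bars for the transporter genes are 26.0% higher and 16.0% lower, and for all genes 21.7% higher and 27.3% lower.

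A further reading comes from probe sets that the test of 1 probe set per gene did not use. Of the 21 called genes, 17 had at least 1 further probe set above the filter, 33 in all. Of these 33, 32 went the same way as the one tested, 27 of them called over all probe sets, and 0 were called the opposite way in limma. Of all probe sets above the filter 45.8% passed. That share is no baseline for the 33, which belong to genes already called, and probe sets below the filter were not counted. The exception in direction was a probe set of SLC38A12, at 0.08 (unadjusted p = 0.478). Probe sets of a gene share the arrays and often the same transcripts, so they are no replicates of the treatment.

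Enzymes and regulators on either side of the carriers moved in both directions, and their counts stand against 49.1% of all tested genes called, 21.7% higher and 27.3% lower. The lists were chosen with earlier results of these data known, so their shares only describe the genes listed. Of 10 tested genes of glucose trapping and GLUT traffic, 4 rose and 2 fell, with HK2 (0.98 ± 0.067, SE) and HK1 (0.50 ± 0.043), the hexokinases that trap glucose, higher, and TXNIP (-0.85 ± 0.042), an arrestin known to pull GLUT proteins from the surface, lower. Of 11 genes of lactate and pyruvate handling, 4 rose and 4 fell, among them the pyruvate dehydrogenase kinase genes PDK2 (-0.78 ± 0.079) and PDK1 (0.45 ± 0.070) and the mitochondrial pyruvate carrier gene MPC1 (-0.42 ± 0.080). Of the carrier partners, 4 of 4 tested were lower, including BSG (-0.22 ± 0.058), the chaperone of lactate carriers, ARL6IP5 (-0.39 ± 0.049), which restrains glutamate carriers in rodents, and STOM (-0.34 ± 0.059), a membrane protein that binds the GLUT protein of red cells. Next to the glutamine carriers, 6 of 13 enzyme genes of glutamine and nonessential amino acids rose and 2 fell, with glutamine synthetase, GLUL (-0.49 ± 0.052), and SHMT1 (-0.43 ± 0.063) lower and the serine synthesis gene PSAT1 (0.40 ± 0.066) higher.

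Downstream of leucine and arginine uptake, 6 of 12 tested enzyme genes rose and 4 fell, 83.3% called against 49.1% of all tested genes. Of all genes at 9 log2 units or above, 60.1% were called. This list too was chosen with earlier results known, and the difference in share was not tested. BCAT1, which starts the breakdown of branched-chain amino acids, rose 2.18-fold, to a mean log2 signal of 10.95 ± 0.079 with EPC-Exos, against 9.82 ± 0.18 with PBS (SD, n = 3 each, limma adjusted p = 2.38e-09). The spermidine synthase gene SRM rose 1.77-fold and the arginase gene ARG2 fell 1.91-fold. For cystine use, 2 of 9 genes rose and 4 fell, with the glutathione synthesis subunits moving apart, GCLM at 1.26 ± 0.057 and GCLC at -0.25 ± 0.073 (SE), and the peroxidase gene GPX4 at -0.86 ± 0.047. Of 24 genes of amino acid sensing at mTORC1, 2 rose, 5 fell and 17 did not pass, a share of 29.2% called, below the 49.1% of all tested genes. Among them the leucine sensor relative SESN1 (-1.03 ± 0.081) and the Rag GTPase gene RRAGB (-0.66 ± 0.079) were lower and the leucyl-tRNA synthetase gene LARS1 (0.49 ± 0.048) higher. Of 17 regulators of carrier genes, 5 rose and 2 fell, with MYC (0.70 ± 0.046), CEBPB (0.47 ± 0.067) and the kinase gene SGK1 (0.42 ± 0.040) changing most. Across these lists the limma adjusted p of the genes named lay between 2.48e-11 for GCLM and 0.00894 for GCLC.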

How the data were processed

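RNA of 6 HMEC-1 samples, 3 with EPC-Exos and 3 with PBS, was measured on Affymetrix 3' arrays. The values deposited by the authors are log2 signals per probe set. The submitters' processing notes name MAS5 without its role, and further steps are not given in the sources used here. Groups came from the sample titles, which write EPC for the EPC-Exos samples. Probe sets were named from the platform annotation, where 44988 of 49395 had 1 gene symbol, 1832 several and 2473 none. All 81 transporter symbols were found in the RefSeq gene table.

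The probe set of highest mean signal stood for each gene, and genes with a mean under the 40th percentile of probe sets (log2 5.45) were not tested. The test was limma's (version 3.58.1, R 4.3.3; eBayes with a variance trend, two-sided), with Benjamini-Hochberg adjustment over all 11715 genes and a threshold of 0.05. Simulated arrays with known changes were also run through it. They held far fewer changed genes than were called here, and their noise was independent, so they do not measure errors in these data. A ± marked SE is limma's standard error and one marked SD is the spread over 3 arrays, and the number of arrays limits the precision. Promoter windows are RefSeq's (GRCh38.p14). The genes and lists were chosen with earlier results of these data known. Values per array were to be given for called genes of at least 1.5-fold and the brightest tested gene of each family, and those of further genes were added after their values were seen. From each other list, up to 3 called genes were named by size of change. Alternatives covered scaling, the log offset, the filter, the choice of probe set, the variance model, a replicate block and leaving out each array. No array batch is given in the labels, so batch and group cannot be told apart.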

Additional observations from a re-analysis of the deposited data

How the results depend on the processing

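The main counts were 5748 genes called in all, 13 transporter genes higher and 8 lower, and 1 higher and 3 lower at the fold threshold of 1.5. Without the signal filter, 2 were higher and 5 lower at the fold threshold. With the filter at the 60th percentile, which tests fewer genes, 8 were called higher and 5 lower, and 0 higher and 1 lower passed the fold threshold. Averaging all probe sets per gene gave 1 lower at the fold threshold, SLC1A4, which was not called in the main test, while SLC2A10 (-0.51) and SLC2A6 (-0.45) stayed under 1.5-fold and SLC2A12 was not tested. Without probe sets ending in _x_at or _s_at, 2 were higher and 2 lower at the fold threshold, SLC2A6 changing by -0.25. The offset of 32 gave 1 higher and 2 lower. Testing every probe set above the filter called 37 probe sets higher and 17 lower, which counts probe sets rather than genes. Leaving out 1 array gave 4959 to 5671 genes called in all, 11 to 14 transporter genes higher and 7 to 9 lower, and at the fold threshold 1 to 2 higher and 3 lower. The second gene was SLC16A7 without EPC-Exos replicate 2 and SLC6A6 without EPC-Exos replicate 3. Same-numbered arrays had correlations of their deviations of 0.109, 0.093 and 0.044, so the numbers were not taken to pair the samples, and the fit with the replicate block called 6118 genes, with 14 transporter genes higher and 9 lower. Of the 21 called genes, 17 stayed past the threshold under every alternative that tested them, and 19 of 303 values did not, in SLC1A1, SLC6A17, SLC6A18 and SLC38A12, with 0 reversed. SLC38A12 lost its call with the mean of its probe sets (limma adjusted p = 0.225). Of 398 values of the 29 uncalled genes, 19 passed, in 11 genes, among them SLC1A4 with the mean of its probe sets (-0.61, limma adjusted p = 1.2e-05), and 24 turned sign without a call. The cause of these shifts was not tested. Signals near the background guide limit what can be said of the 31 genes below the filter.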

Other observations

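Of the 7 probe sets assigned to a transporter gene and a second gene, 5 carry both SLC2A3, a high-affinity glucose carrier gene, and its near copy SLC2A14. The brightest of these averaged 8.59 ± 0.11 with EPC-Exos and 8.35 ± 0.10 with PBS (SD, n = 3 each), and the others differed by 0.01 to 0.22. The probe set shared by SLC6A8 and its pseudogenes averaged 8.40 ± 0.16 with EPC-Exos and 7.62 ± 0.19 with PBS. The probe set shared by PRG2 and SLC43A3 averaged 5.79 ± 0.11 with EPC-Exos and 5.76 ± 0.07 with PBS. These differences were not tested.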
